A study of Mus musculus with 12 samples.

Results

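Serpinb2, Serpinf1 and Serping1 are serpins (serine protease inhibitors and their relatives) other than the better known maspin, Serpinb5. They were followed over 12 spotted cDNA arrays of mouse skin keratinocytes that overexpressed deltaNp63alpha. The members were taken by gene symbol from the platform's annotation, and each was represented by 1 probe, so that the set comprised 3 of 6774 named genes on the array. They were chosen by their pair values in the low and high calcium contrasts, which were known: Serpinb2 passed the test across all rows at both calcium levels, and Serpinf1 and Serping1 passed it at neither. Of all rows tested, 0.409% passed at low calcium (19 of 4646) and 1.39% at high calcium (101 of 7263). As these values chose the members, their differences between deltaNp63alpha and control are given as a description without a test.

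The cells were primary keratinocytes from C57Bl/6NCr mice, transduced with an adenovirus that carried either deltaNp63alpha or, in the controls, beta-galactosidase. Both groups therefore carried an adenovirus, and each array compared one virus with the other. The cells were kept in 0.05 mM calcium, which holds them in a proliferating state, or were moved to 0.12 mM calcium for 24 h, which induces differentiation. Total RNA was taken 41 h after transduction. At each level there were 3 repeats, and each repeat was hybridised on a forward array (deltaNp63alpha in Cy5, control in Cy3) and on a reversed array with the dyes exchanged. The labels call the repeats technical and name no separate cultures or animals, so the spread given here may be technical only. No array set one calcium level against the other, and a ratio holds no absolute level, so the cell type could not be checked by the level of its markers.

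Each array had values for 3366 to 9096 probes. At low calcium the arrays of repeat 1, and at high calcium those of repeats 1 and 2, form a well filled set by their experiment numbers. Most arrays of the other set were sparse, and the members were missing from some of them. The deposited log2 ratios were read as Cy5 over Cy3, and the reversed array of a repeat was turned in sign and averaged with its forward array to give the log2 ratio of deltaNp63alpha over control (the pair value). The plain mean of both arrays is the shared component, which keeps its sign when the dyes are exchanged. The direction of the pair value is not settled. Its basis is that Cy5 is by custom the numerator and that the series title names a negative regulation of maspin. In the labels, however, channel 2 holds deltaNp63alpha on all arrays, and if channel 2 was the numerator no array should be turned and the shared component is the effect. Over all probes, the deposited ratios of forward and reversed arrays correlated positively. Over the 9 combinations at each level the median r was 0.446 at low calcium (0.149 to 0.712) and 0.255 at high calcium (0.023 to 0.535). Ratios that turn with the dyes would give a negative correlation, and the cause of the positive one was not tested. The ratios of Trp63, the gene of the transgene, go against the reading as Cy5 over Cy3 by their signs on most arrays. They were below 0 on 4 of 5 forward arrays (−1.71 to 0.002) and above 0 on 3 of 4 reversed arrays (−1.905 to 1.018). At low calcium repeat 2, however, they were −0.999 forward and −1.905 reversed, so that pair value was above 0. If channel 2 was the numerator, the values below 0 go against a higher Trp63 as well, so Trp63 settles no reading. The Trp63 pair means were −0.16 at low calcium (limma adjusted p = 0.919) and −0.55 at high calcium (limma adjusted p = 0.446), so neither passed the test. Whether its probe detects the transgene was not tested. If the ratios are Cy3 over Cy5, every pair value given here changes sign and keeps its size, and what is called lower is higher; deltaNp63alpha and control are therefore the channels labelled so.

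Serpins are suicide substrates: the target protease cuts an exposed loop of the serpin, and the serpin then changes shape and traps the enzyme. Serpinb2, also called plasminogen activator inhibitor type 2, blocks urokinase and tissue plasminogen activator in the test tube, stays largely inside cells and is made in the differentiating layers of the epidermis. Serping1, or C1 inhibitor, is a secreted inhibitor of complement C1r and C1s and of the contact proteases. Serpinf1, or pigment epithelium-derived factor, is a secreted serpin that inhibits no protease and is known as an inhibitor of blood vessel growth.

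Serpinb2 carried the clearest dye-dependent values of the set. Of its 2 listed RefSeq starts, only the first was used. The 250 bases before it are shown because they hold a TATA box and TGAATCA, a match to a loose AP-1 motif whose middle base is free. AP-1 is a factor family active in keratinocyte differentiation. The sequence is that of RefSeq on GRCm38.p6, chr1:107511173-107511422, plus strand, with the motifs TGANTCA and TATAAA in capitals.
Serpinb2: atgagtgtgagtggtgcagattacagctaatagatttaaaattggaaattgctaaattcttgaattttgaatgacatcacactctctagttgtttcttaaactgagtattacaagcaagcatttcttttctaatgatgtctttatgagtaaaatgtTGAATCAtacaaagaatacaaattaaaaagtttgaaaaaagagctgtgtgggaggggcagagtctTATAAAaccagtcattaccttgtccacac
On both strands, 6.7% of the 32851 promoters in the table hold TGANTCA and 12.4% hold TATAAA in a window of the same length. The p53 family motif, as a single arm of the full element, was found in 7.1% of them and was not matched in this window. The Serpinf1 window held none of these motifs. Serping1 had no start among these promoters, so no window of it was searched. No array measured binding at these windows, and a match is a description of the letters only.

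Serpinb2 was lower with deltaNp63alpha in every pair at both calcium levels, under the reading as Cy5 over Cy3. In whole cultures a lower value from fewer cells that make a transcript cannot be told apart from less RNA per cell. At low calcium its deposited log2 ratios were −1.431, −0.157 and −0.483 on the forward arrays of repeats 1, 2 and 3. On the reversed arrays of the same repeats they were 2.202, 2.044 and 2.13. All forward values lay below 0 and all reversed values above 2, and the reversed values were far less spread than the forward ones. At high calcium the forward arrays of repeats 1 and 2 gave −1.674 and −0.898, and that of repeat 3 had no value. The reversed arrays of repeats 1, 2 and 3 gave 1.968, 1.749 and 2.404. Again the forward values lay below 0 and the reversed values above 0, and the value of 2.404 had no forward partner and entered no pair.

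**Figure D1:**
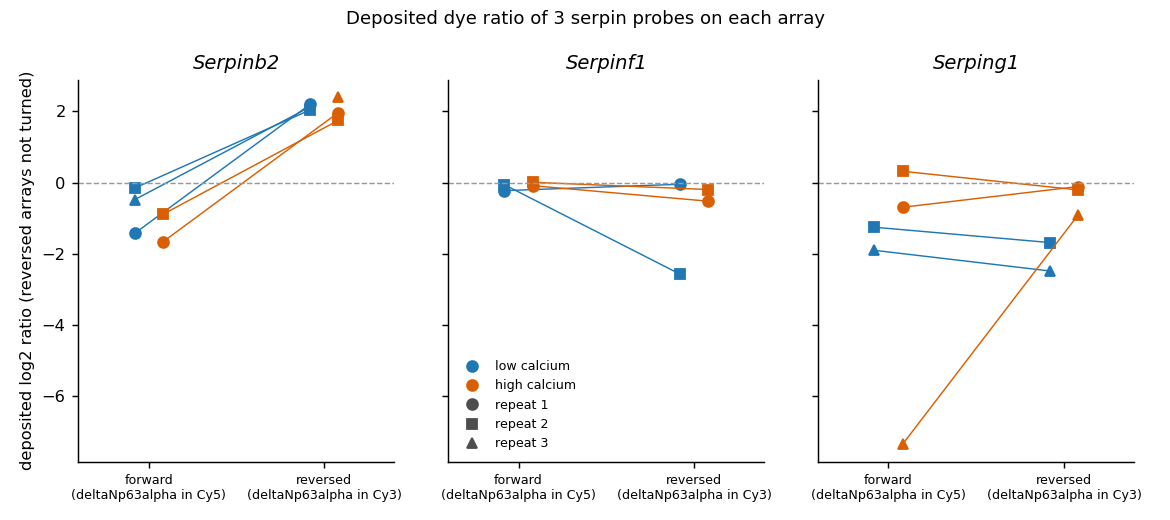
Deposited log2 ratio (vertical axis) of Serpinb2, Serpinf1 and Serping1 on each array, by calcium level, repeat and dye orientation; each point is 1 array. Serpinb2 lay below 0 on its 5 forward arrays and above 0 on its 6 reversed arrays, while Serping1 reached −7.364 on 1 high calcium array.

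The pair values of Serpinb2 at low calcium were −1.816, −1.10 and −1.306, with a mean of −1.41 ± 0.369 (SD, n = 3), or 2.65-fold lower in the channel labelled deltaNp63alpha (2.65-fold higher if the ratios are Cy3 over Cy5). At high calcium the pair values were −1.821 and −1.324, with a mean of −1.57 ± 0.352 (SD, n = 2), or 2.97-fold lower. The levels differed by −0.16 (high minus low), which is less than the spread between repeats at either level. Most low calcium pairs came from the second array set and both high calcium pairs from the well filled set, and within the latter the difference was 0.24 (−1.816 in 1 low pair, −1.57 in 2 high pairs). In each of the 5 pairs the component that turned with the dye was larger in size than the shared one, which averaged 0.72 ± 0.294 (SD, n = 3) at low and 0.29 ± 0.197 (SD, n = 2) at high calcium. With the deposited signs kept, these shared means are the effect, and Serpinb2 is then higher with deltaNp63alpha at both levels.

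The orientations were not equal in size for Serpinb2. Its mean was −0.93 ± 0.633 (SD, n = 5) over the forward arrays and 2.08 ± 0.222 (SD, n = 6) over the reversed arrays. On the reversed arrays it was the 3rd highest of 8934 probes at low calcium repeat 1 and the 2nd highest of 8904 at high calcium repeat 1. On the forward array of low calcium repeat 2, by contrast, 41.2% of the probes lay at or below it. Its place near the end of the distribution was thus seen on every reversed array and on only some forward arrays.

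**Figure D2:**
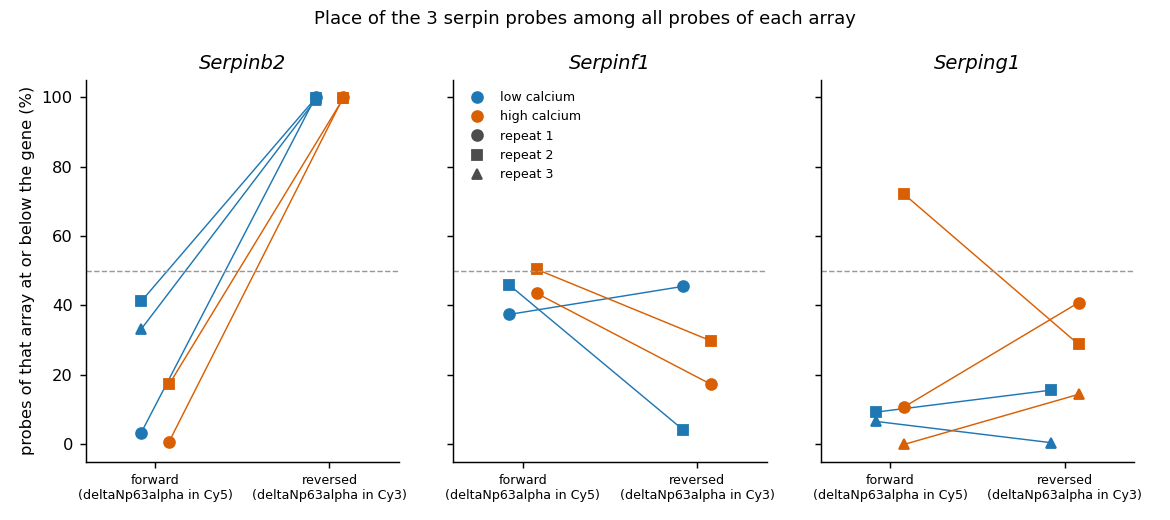
Percent of the array's probes with a value at or below that of each member (vertical axis), for every array by calcium level, repeat and dye orientation. Serpinb2 sat near the top on the reversed arrays, and between 0.8% and 41.2% on the forward arrays.

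Few rows changed sign with the dyes as Serpinb2 did. Of 1672 rows with a value on the same 11 arrays, 11 (0.658%, Serpinb2 among them) lay below 0 on every forward and above 0 on every reversed array, and 3 rows did the opposite. In 40 of the 1672 rows (2.39%, Serpinb2 among them) every forward value lay below every reversed value, and in 29 the order was opposite. Serpinb2 had the highest mean of the 1672 rows on the reversed arrays and ranked 60th from the lowest on the forward arrays. The distance from its highest forward to its lowest reversed value was 1.906, the widest of these rows. The others with that sign pattern were Flg (filaggrin, a protein of the cornified layer), Klk5 (a kallikrein protease of the epidermis), Cav1 (caveolin), Ctsl (cathepsin L, a lysosomal protease), Anxa1 (annexin A1), Nktr, Mthfd2, Tmcc3, Ccni and Ccn1. Their forward minus reversed means, divided by 2, ran from −1.55 for Flg to −0.40 for Ccn1, against −1.51 for Serpinb2. These 10 genes were named because they share the pattern, after their values were seen. Serpinb2 was itself chosen by its pair values, which come from these same arrays, so its ranks here are a description and no test. A further 12.1% of the 1672 rows kept 1 sign on all 11 arrays, whichever dye deltaNp63alpha was in.

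**Figure D3:**
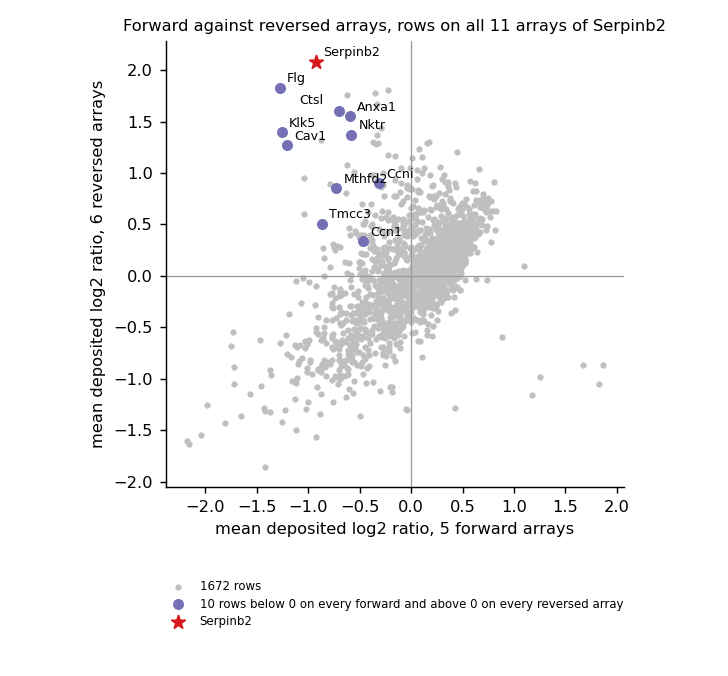
Mean deposited log2 ratio over the forward arrays (horizontal axis) against the mean over the reversed arrays (vertical axis) for the 1672 rows with values on all 11 arrays that measured Serpinb2; labelled points lie below 0 on every forward and above 0 on every reversed array. Serpinb2 stands highest on the vertical axis, at 2.08.

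Serping1 had no common direction by its pair values, although 9 of its 10 deposited ratios were below 0. At low calcium the forward arrays of repeats 2 and 3 gave −1.256 and −1.906, and the reversed arrays gave −1.688 and −2.487. All 4 values were negative whichever dye deltaNp63alpha was in, and repeat 1 had no value. At high calcium the forward arrays of repeats 1, 2 and 3 gave −0.695, 0.318 and −7.364. The reversed arrays gave −0.112, −0.207 and −0.912. The value of −7.364 was the lowest of the 3434 probes on its array, and the other 5 high calcium values lay between −0.912 and 0.318.

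The pair values of Serping1 were 0.216 and 0.29 at low calcium, with a mean of 0.25 ± 0.053 (SD, n = 2). Its shared component there was −1.83 ± 0.512 (SD, n = 2), several times larger than what turned with the dye. At high calcium the pair values were −0.291, 0.262 and −3.226, with a mean of −1.08 ± 1.875 (SD, n = 3), which is smaller than its spread. With the deposited signs kept it is −1.83 at low and −1.50 at high calcium. Without repeat 3, which holds the −7.364, the high calcium mean was −0.01. The low calcium values came from the second array set only (0.25, 2 pairs), while at high calcium the well filled set gave −0.01 (2 pairs) and the second set −3.226 (1 pair). The part of the array set and of that single array in the difference of −1.34 (high minus low) was not tested.

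Serpinf1 stayed near 0 in most pairs. At low calcium its forward arrays of repeats 1 and 2 gave −0.227 and −0.062, and its reversed arrays gave −0.047 and −2.577. At high calcium the forward arrays gave −0.087 and 0.008 and the reversed arrays −0.524 and −0.196. It had no value in repeat 3 at either level, and the 1 value that stood apart was the −2.577 of the reversed array of low calcium repeat 2. The pair values were −0.09 and 1.258 at low calcium, with a mean of 0.58 ± 0.953 (SD, n = 2), and 0.219 and 0.102 at high calcium, with a mean of 0.16 ± 0.083 (SD, n = 2). The low calcium mean was smaller than its spread, and its pairs differed in sign. Over the forward arrays alone it was −0.14 and over the reversed arrays alone 1.31.

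**Figure D4:**
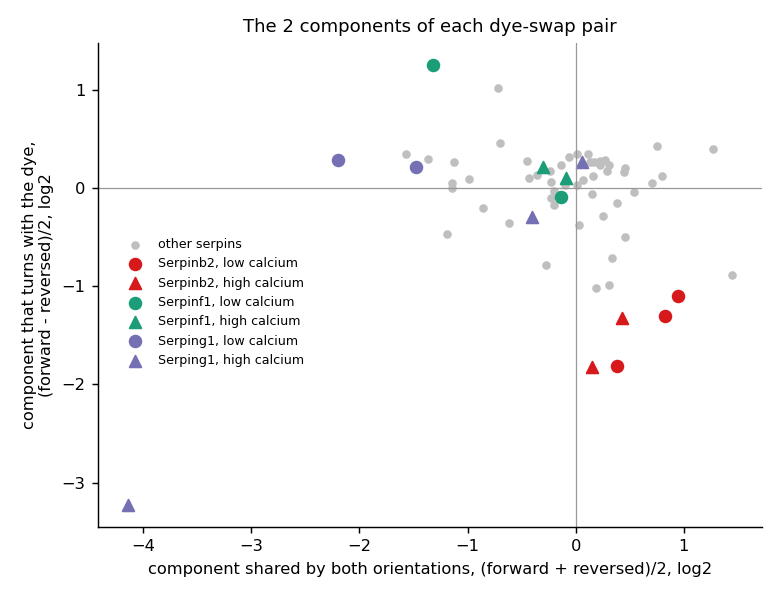
Component that turned with the dye (pair value) and shared component, both in log2 units, for each pair of each member at low and high calcium; each point is 1 pair. For Serpinb2 the turning component lay between −1.821 and −1.10 in all 5 pairs, whereas the low calcium pairs of Serping1 lay near 0 on it and between −2.196 and −1.472 on the shared one.

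The other 12 serpins on the array were mostly near 0 by their pair values. At low calcium 8 could be tested, with a median of 0.15 against 0.02 over all rows, and at high calcium all 12, with a median of 0.13 against 0.01. By limma with Benjamini-Hochberg adjustment over all rows, Serpinb5 (maspin, a serpin that inhibits no protease in the usual way) was the 1 that fell at low calcium, and also the 1 that fell at high calcium (under the reading as Cy5 over Cy3, as for every fall below). Over all rows, 0.409% passed at low and 1.39% at high calcium. The series title on maspin is part of the basis of that reading. The direction of Serpinb5 was therefore assumed in part and is no separate finding. The forward arrays of Serpinb5 gave −0.83, −0.039 and 0.559 at low calcium and −1.057, −0.68 and 1.474 at high calcium. Its reversed arrays gave 1.214, 0.954 and 2.335 at low calcium and 0.515 and 1.297 at high calcium. The reversed values were all positive, but 1 forward array at each level, that of repeat 3, was positive too. Its pair mean was −0.80 ± 0.155 (SE, n = 3, limma adjusted p = 0.04998) at low and −0.89 ± 0.190 (SE, n = 2, limma adjusted p = 0.0388) at high calcium. The low calcium call was lost without repeat 1 (limma adjusted p = 0.21) or repeat 3 (limma adjusted p = 0.16). The high calcium mean leaves out the forward array of repeat 3, which had no partner; with it the value was −0.10 (limma adjusted p = 0.968).

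After Serpinb5, the largest values were those of Serpina1b (an alpha-1-antitrypsin) at low calcium, 0.64 (limma adjusted p = 0.314), and of Serpinb8 at high calcium, −0.44 (limma adjusted p = 0.371). Serpinb8 is also a near neighbour of Serpinb2 on chromosome 1, where Serpinb7, Serpinb2, Serpinb10 and Serpinb8 follow each other in the RefSeq order, and its low calcium value was 0.17. Serpinf2 (alpha-2-antiplasmin), the gene next to Serpinf1 on chromosome 11, had pair means of 0.03 and −0.03. Its deposited ratio was below 0 on all 12 arrays, with means of −0.64 ± 0.376 (SD) on the forward and −0.64 ± 0.417 (SD) on the reversed arrays, so nearly all of it was shared component.

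**Figure D5:**
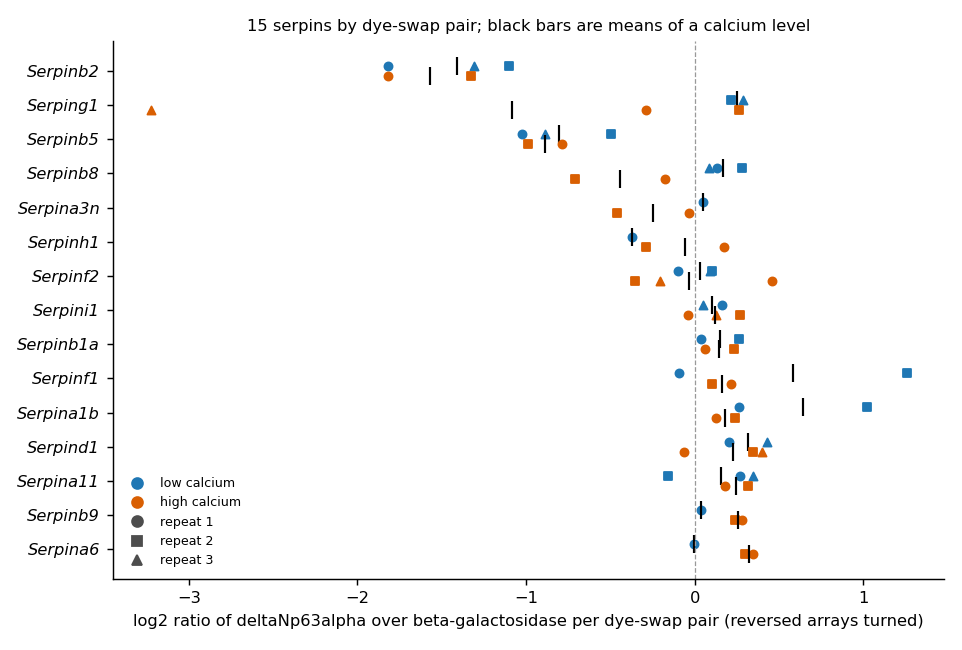
Pair values in log2 units (horizontal axis) of the 15 serpins on the array at low and high calcium; each point is 1 pair. The pairs of Serpinb2 lie between −1.821 and −1.10, and Serping1 has the single lowest pair, −3.226.

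Serpinb2 acts on the plasminogen activators, and 12 of the 20 listed genes of plasminogen activation were on the array. None of the 5 tested at low calcium passed by limma (0 at an unadjusted p under 0.05), with a median of 0.16. At high calcium 1 of 10 fell and none rose (2 at an unadjusted p under 0.05), with a median of −0.21. Over all rows, 0.409% passed at low and 1.39% at high calcium, with medians of 0.02 and 0.01. By limma, 439 of 4646 rows at low and 842 of 7263 at high calcium had an unadjusted p under 0.05. The 1 listed gene that fell was S100a10, an annexin A2 partner that binds plasminogen at the cell surface. Its high calcium forward arrays gave −0.731 and −0.724 and its reversed arrays 1.354 and 1.648. Its pair mean was −1.11 ± 0.189 (SE, n = 2, limma adjusted p = 0.0219). S100a10 was not called with the deposited signs kept, single arrays kept or arrays as replicates. Nor was it called with forward or reversed arrays only, with scaled arrays or with a trended and robust prior. The next largest was F3 (tissue factor), at −0.70 (limma adjusted p = 0.14). At low calcium the largest were Vtn (vitronectin) at 0.51 (limma adjusted p = 0.539) and Plat (tissue plasminogen activator) at 0.34 (limma adjusted p = 0.761). Plau, the gene of urokinase, was not tested at either level; its deposited ratios were 0.441 on a forward and 0.225 on a reversed low calcium array, and 0.433 on 1 forward and 0.85 and 0.781 on 2 reversed arrays at high calcium.

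Serping1 acts on complement and contact proteases, and 17 of 37 listed genes of these systems were on the array. None of 11 tested at low calcium and none of 9 tested at high calcium passed by limma (0 and 2 at an unadjusted p under 0.05), with medians of 0.04 and 0.07. Over all rows, 0.409% passed at low and 1.39% at high calcium. The largest values in the list were those of C9 (0.37, limma adjusted p = 0.528) and Hc, the gene of C5 (0.23, limma adjusted p = 0.803), at low calcium. At high calcium they were those of Clu (clusterin, −0.71, limma adjusted p = 0.143) and Cr1l (−0.48, limma adjusted p = 0.394).

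Of 21 listed genes of the receptors of pigment epithelium-derived factor and of angiogenesis, 14 were on the array. At low calcium 1 of 10 tested fell, and at high calcium 1 of 12, with medians of −0.12 and 0.12, and none rose. At an unadjusted limma p under 0.05 there were 3 and 1. Over all rows, 0.409% passed at low and 1.39% at high calcium, with medians of 0.02 and 0.01. At both levels the listed gene that fell was Thbs1, thrombospondin 1, a matrix protein that restrains blood vessel growth. Its pair mean was −1.10 ± 0.204 (SE, n = 3, limma adjusted p = 0.045) at low and −1.39 ± 0.249 (SE, n = 2, limma adjusted p = 0.0214) at high calcium. The low calcium call was lost without any 1 of the 3 repeats (limma adjusted p = 0.205, 0.0551 and 0.052). On the high calcium forward array of repeat 3, which had no partner, Thbs1 was at 1.052, and with this array kept its high calcium value was −0.58 (limma adjusted p = 0.878). The next largest were Kdr at low calcium (0.38, limma adjusted p = 0.393) and Tek at high calcium (0.33, limma adjusted p = 0.495), both receptors of endothelial growth factors.

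Of the markers of other cells that a keratinocyte culture could hold, none tested passed at either level by limma, and 1 endothelial marker at low calcium had an unadjusted p under 0.05. Of 13 fibroblast markers 10 were on the array, and 6 tested at low and 8 at high calcium lay between −0.33 and 0.20 and between −0.22 and 0.27. Of 9 immune markers 6 were on the array, and 4 tested at each level had medians of 0.15 and 0.17. Of 5 endothelial markers 3 were on the array and tested, with medians of −0.14 and −0.35, and of 6 melanocyte markers 1 was tested, at 0.27 and 0.31. Their part in the values of the serpins was not tested. Of 13 keratinocyte markers 8 were on the array. None of 4 tested passed at low calcium (0 unadjusted), and 1 of 7 fell at high calcium (2 unadjusted). Over all rows, 0.409% passed at low and 1.39% at high calcium. The keratinocyte marker that fell was Krt10, a keratin of the differentiating layers, with a pair mean of −1.58 ± 0.201 (SE, n = 2, limma adjusted p = 0.00821). Krt10 was not called with the deposited signs kept, single arrays kept or arrays as replicates. It was also not called with forward or reversed arrays only, with scaled arrays or with a trended and robust prior. All marker values are ratios and give no share of any cell type.

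The genes with the profile most like that of Serpinb2 were sought by the cosine of the centred deposited ratios over its 11 arrays, among 1352 named genes; the cosine is 1 for identical profiles and is the same whether or not the reversed arrays are turned. The closest were Nktr (0.971), Anxa1 (0.959), Skap2 (0.959), Itgb1 (0.953) and P4hb (0.934). For Serpinf1, over 8 arrays and 2850 genes, they were Gngt2 (0.994), Mtf1 (0.985), Eif2a (0.982), Il1r1 (0.98) and Fn3k (0.978). For Serping1, over 10 arrays and 1139 genes, they were Lrrcc1 (0.977), Zfp397 (0.966), Rpp30 (0.958), Riiad1 (0.938) and Slc22a12 (0.935). The points share their arrays, and for Serpinf1 and Serping1 a single array with a far lower value (−2.577 and −7.364) weighs most in the cosine.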

How the data were processed

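The deposited table of the authors holds 1 log2 ratio per probe and array for 12 arrays. The base was read from the range of the values, and each array was already centred on a median near 0. For the scanner, background correction, normalisation, spot filter and numerator dye, the methods were not given in the sources used here. Per the labels, total RNA was hybridised in both dye orientations.

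Of 9558 probes, 7457 had 1 gene symbol, 481 had several and 1620 had none. Of those with 1 symbol, 7368 were found in RefSeq by gene ID and took the symbol given there, changed or not. Probes of 1 gene were averaged, which gave 8875 rows. The reversed array of each repeat was turned and averaged with its forward array, and only pairs with both arrays were used. Rows with a pair at either level were fitted in R 4.3.3 by the lmFit and eBayes functions of limma 3.58.1, with no covariates, over the 3 low and 3 high calcium pairs. A row was tested at a level only if it had at least 2 pairs there. A row was called at a Benjamini-Hochberg adjusted p under 0.05 over all rows. Depth does not apply to arrays; their small number limits the precision.

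The members and the gene lists were chosen with earlier results of these data known. The rule for names was: the 3 members; of the other serpins and of the pathway lists, the called genes and the 2 with the largest mean at each level; of the marker lists, the called genes; and the 5 genes most alike to each member. Genes named outside this rule are said to be so, apart from genome neighbours, Trp63 and Plau, which were chosen for what they are.

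Alternatives changed the orientation, the handling of missing arrays, the scale, the blocks, the prior, the probes and the repeats used. The choice to follow Serpinb5, S100a10, Thbs1 and Krt10 under them was made after seeing the data.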

Additional observations from a re-analysis of the deposited data

Results flagged for a closer look

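Among the 6 groups of 4 to 6 values of a member at a calcium level, 2 held a value far from the others of its group. Dixon's 95% critical value served only as the mark for listing a value; chance passes it in about 1 in 20 groups, but the genes were chosen on these values, so no test is made. Serpinf1 at low calcium was −2.577 on the reversed array of repeat 2, where the gap to the nearest value was 0.929 of the range of the 4 arrays, above the mark of 0.829. Serping1 at high calcium was −7.364 on the forward array of repeat 3, with a gap of 0.84 of the range of the 6 arrays, above the mark of 0.625. Both arrays belong to the less filled set, and their cause was not tested.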

How the results depend on the processing

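With the deposited signs kept, Serpinb2 was 0.72 at low and 0.29 at high calcium, Serpinf1 −0.73 and −0.20, Serping1 −1.83 and −1.50, Serpinb5 0.70 and 0.0186, Thbs1 0.86 (limma adjusted p = 0.0385, a rise) and 0.14 (0.771), and S100a10 0.39 at high calcium (limma adjusted p = 0.347). With forward arrays only, low calcium gave −0.69 for Serpinb2, −0.14 for Serpinf1 and −1.58 for Serping1, and high calcium −0.0395 for Serpinf1 and −2.58 for Serping1. With reversed arrays only, low calcium gave −2.125 for Serpinb2, 1.31 for Serpinf1 and 2.09 for Serping1, and high calcium −2.04 for Serpinb2, 0.36 for Serpinf1 and 0.41 for Serping1. With the arrays scaled to one spread, Serpinf1 was 0.28 at low calcium and high calcium gave −2.45 for Serpinb2, 0.27 for Serpinf1 and −0.61 for Serping1, and with the array set as a block 0.83 for Serpinf1; Serping1 at low calcium was then 1.86. Rows called at low calcium (19 by limma) numbered 763 with signs kept, 0 with single arrays kept (512 at an unadjusted p under 0.05), 1 with arrays as replicates (Prl2c5, named after its value was seen), 33 with forward and 330 with reversed arrays, 0 when scaled (272 unadjusted), 0 with a trended and robust prior (401 unadjusted), 4 among complete rows (named after their values were seen: Anxa1, Itgb1, Nktr and an unnamed probe) and 49 with the level fitted alone. At high calcium (101) they numbered 0 with signs kept (1270 unadjusted), single arrays kept (555), arrays as replicates (436), forward arrays (1883) and the trended prior (585), 1 with reversed arrays (Serpinb2), 1 when scaled (Anxa1), 13 with the array set block, 14 among complete rows and 236 alone. The 1 other serpin called, Serpinb5, became 0 at both levels with signs kept, single arrays kept, arrays as replicates, forward arrays, scaling, the trended prior and the array set block, and at high calcium also with reversed arrays. The S100a10 call was lost with single arrays kept, arrays as replicates, forward arrays, reversed arrays, scaling and the trended prior (limma adjusted p = 0.653, 0.455, 0.159, 0.181, 0.0724 and 0.475). The Thbs1 calls were lost at low calcium with single arrays kept, arrays as replicates, forward arrays, scaling and the trended prior (limma adjusted p = 0.666, 1, 0.769, 0.764 and 0.42), and at high calcium with these (0.878, 0.998, 0.549, 0.135 and 0.343), reversed arrays (0.186) and the array set block (0.336). Of the member calls behind the choice, Serpinb2 was not called at high calcium with the array set block, where Serping1 was called at both levels; Serping1 was also called at high calcium with the replicate block and without high calcium repeat 1 or 2, and at low calcium with reversed arrays. With single arrays kept, arrays as replicates, forward arrays, scaling or the trended prior, Serpinb2 was called at neither level, and with signs kept only at low calcium. Leaving out 1 repeat at a time gave 6 to 51 calls at low calcium, 33 to 151 at high calcium, 0 to 1 other serpin at each level, and for Serping1 at high calcium −1.76 to −0.01. The difference between levels had 0 calls by limma (107 unadjusted), and 1, Serping1, with the array set block and without high calcium repeat 1 or 2, all of which keep the −7.364; Serping1 was chosen on these values, so this is no test of it. The repeat numbers did not pair the samples (correlations of deviations −0.026, −0.108 and 0.204); with the replicate block, low calcium had 43 calls, the difference 1 (Serping1 again), and Serping1 at low calcium was 0.65. The causes of these changes were not tested. The few arrays and missing spots limit all values.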
